A study of Homo sapiens with 6 samples.

Results

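The pyruvate dehydrogenase gene set comprised 10 genes, taken by symbol from the deposited count files: the 4 kinase genes PDK1, PDK2, PDK3 and PDK4, the phosphatase genes PDP1 and PDP2, and the subunit genes PDHA1, PDHB, DLAT and PDHX. All 10 were found among the 38557 listed genes and all 10 passed the filter on low counts, as did 16107 genes in all. The cells were cardiomyocytes made from WTC11, a human line of induced pluripotent stem cells that is labelled wild type, and the labels give both culture groups this line and no further treatment. One group had been kept in RPMI with the serum-free supplement B27 and the other in DMEM with fatty acids, with 3 biological replicates each, numbered 1 to 3 in both media. The concentrations of glucose and fatty acids, and the time in each medium, are not given in the labels, nor is what a biological replicate shares with its fellows. If the cultures were not grown separately, the p values below measure only the spread between these libraries.

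Pyruvate dehydrogenase is the mitochondrial complex that converts pyruvate to acetyl-CoA, and it commits carbon from glucose to oxidation. The kinases phosphorylate its alpha subunit and switch the complex off, and the phosphatases remove the phosphate and switch it on. In heart muscle the kinases are known as a point where fatty acid use restrains glucose oxidation, with PDK4 the isoform known for its induction by fasting and fatty acids and PDK1 known as a target of the hypoxia-inducible factors.

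Gene counts per library were 23232324 to 31035389, of which the 10 genes held 35899 to 48269. The summed level of 12 cardiomyocyte markers was 30456 to 37050 CPM (counts relative to library size, scaled by TMM, a correction for library composition) in RPMI plus B27 and 24097 to 34292 CPM in DMEM plus fatty acids. The summed level of 12 fibroblast and stromal markers was 4347 to 8474 CPM in RPMI plus B27 and 736 to 1947 CPM in DMEM plus fatty acids, without overlap. Of these 12, 6 were called lower in edgeR, where 1.07% of all tested genes were. The 7 smooth muscle markers summed to 1851 to 2468 and 490 to 1327 CPM, and the 8 epicardial markers to 1974 to 2399 and 885 to 1098 CPM. Nearly all of the epicardial sum was the keratin genes KRT8, KRT18 and KRT19. Of the others, WT1 and UPK3B were too low to be tested, and TBX18, ALDH1A2 and BNC1 had means of 0.330 to 4.98 CPM. The 6 endothelial markers summed to 30.1 to 239.8 and 115 to 464 CPM, nearly all of it KDR, while the other 2 that could be tested had negative log2 fold changes (TEK -2.13 and TIE1 -0.97), and 0 of the 3 passed in edgeR (KDR passed as higher with the block and TEK as lower by DESeq2, adjusted p 0.0245 and 0.0366). No marker of these 5 lists was at 0 in all 6 libraries. In bulk libraries fewer cells of a type and less RNA per cell cannot be told apart, and the part of these other cell types in the values of the 10 genes was not tested.

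Between media, the kinase genes did not all move the same way. PDK1 and PDK3 were lower in every DMEM plus fatty acids library than in any RPMI plus B27 library, PDK2 was higher in every one, and PDK4 was higher in replicates 2 and 3 alone. PDP1 and PDHA1 were also higher without overlap. None of the 10 passed an adjusted p of 0.05 in the edgeR quasi-likelihood test, in which 1.36% of all tested genes passed (219 of 16107, or 3 to 131 genes when 1 library was left out, the fewest without DMEM plus fatty acids replicate 3). At an unadjusted p under 0.05 there were 5 of the 10 (PDK1, PDK3, PDK4, PDP1 and PDHA1), against 17.7% of all tested genes. By the DESeq2 Wald test 2 of the 10 passed, PDK1 and PDK3, both lower, where 7.05% of all genes passed, 4.93% as lower and 2.12% as higher. With the replicate number as a block 1 passed, PDK3, where 4.78% of all genes passed, 3.42% as lower and 1.36% as higher. Libraries of the media did not overlap for 5 of the 10 genes, 3 higher and 2 lower, beside 25.6% of all tested genes, 12.8% in each direction. The median log2 fold change of the 10 was 0.20, with a range from -0.62 to 1.29, beside 0.01 for all tested genes.

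**Figure D1:**
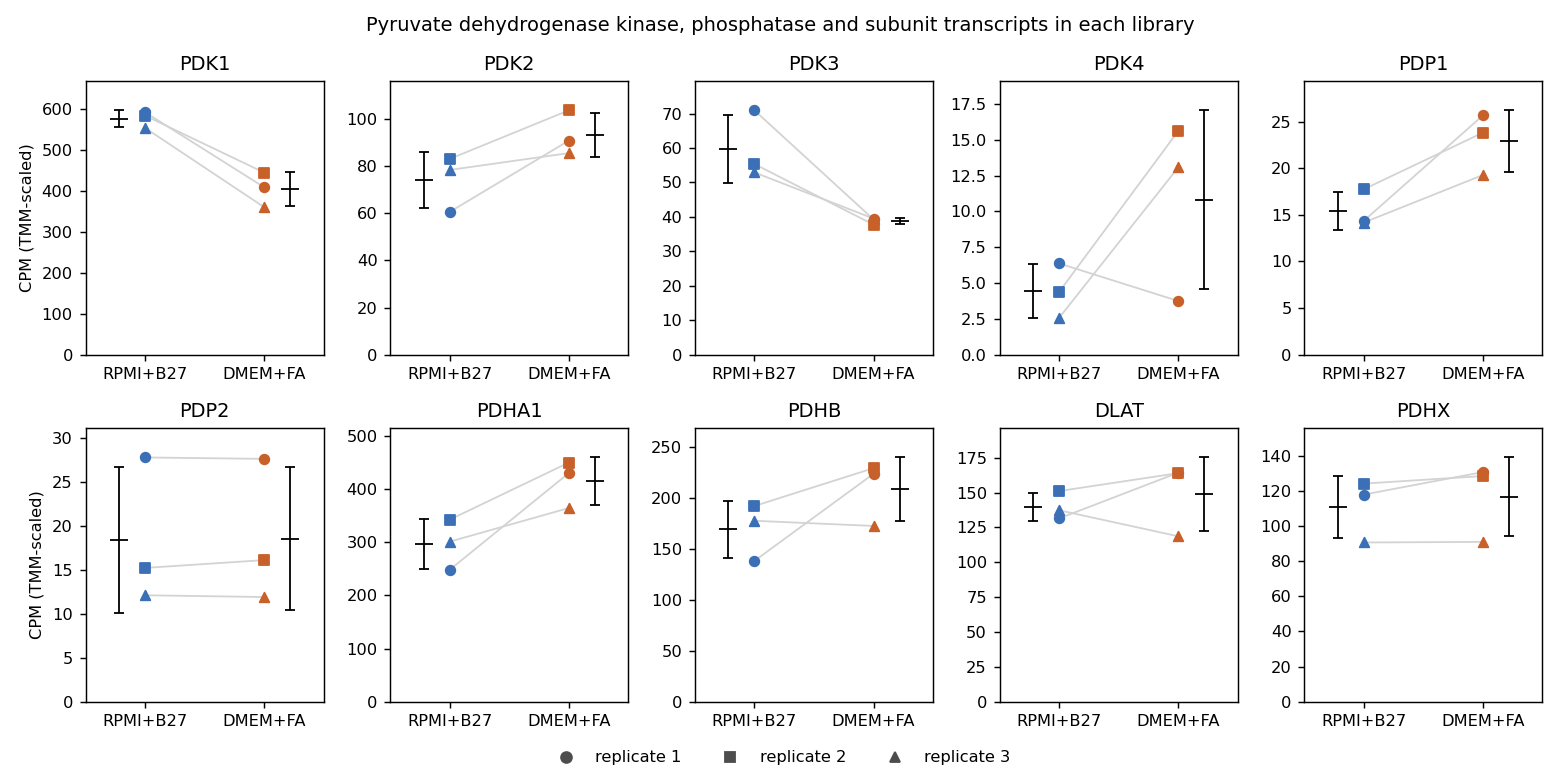
TMM-scaled CPM of each of the 10 genes in the 6 libraries (vertical axes, from 0; blue, RPMI plus B27; orange, DMEM plus fatty acids). Symbols mark replicates 1 to 3, grey lines join libraries with the same number, and black bars are the mean ± SD of 3 libraries. PDK1 and PDK3 sit lower and PDK2, PDP1 and PDHA1 higher in all 3 DMEM plus fatty acids libraries.

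PDK1 encodes the kinase isoform known for its induction under low oxygen. Its gene lies on chromosome 2 from 172555373 to 172608669 on the plus strand (GRCh38, GENCODE 29; ENSG00000152256.13). PDK1 was at 593, 585 and 555 CPM in RPMI plus B27 replicates 1, 2 and 3 and at 409.7, 446 and 361 CPM in DMEM plus fatty acids. The 3 RPMI plus B27 libraries lay close together, the highest being 1.07 times the lowest, and all 3 DMEM plus fatty acids libraries were below them. The means were 578 ± 20.2 and 405 ± 42.5 CPM (SD, n = 3 each), with a log2 fold change of -0.51 ± 0.13 (SE). The adjusted p was 0.110 by edgeR, 0.0711 with the replicate block and 0.0193 by DESeq2, and reached 0.253 when 1 library was left out.

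PDK3, a second isoform that is lower in DMEM plus fatty acids, is encoded on chromosome X from 24465221 to 24541862 on the plus strand (ENSG00000067992.13). It was at 70.9, 55.3 and 52.9 CPM in RPMI plus B27 and at 39.3, 37.8 and 39.5 CPM in DMEM plus fatty acids. The DMEM plus fatty acids libraries were nearly level, and RPMI plus B27 replicate 1 was the highest of the 6. The mean was 59.7 ± 9.79 against 38.8 ± 0.952 CPM (SD, n = 3 each), a log2 fold change of -0.62 ± 0.14. The adjusted p was 0.0866 by edgeR, 0.0495 with the replicate block and 0.0108 by DESeq2, and reached 0.260 when 1 library was left out.

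PDK2 is the kinase isoform with the widest tissue distribution and is encoded on chromosome 17 from 50094737 to 50112152 on the plus strand (ENSG00000005882.11). PDK2 was at 60.6, 83.1 and 78.5 CPM in RPMI plus B27 and at 90.9, 104 and 85.6 CPM in DMEM plus fatty acids. The groups were apart by little, since DMEM plus fatty acids replicate 3 was just above RPMI plus B27 replicate 2. Its log2 fold change was 0.33 ± 0.15 (edgeR adjusted p 0.304), and 0.21 without RPMI plus B27 replicate 1. Its annotated exons share 2113 bases with those of SAMD14 on the opposite strand, and the strand setting of the counting is not given in the sources used here.

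PDK4 is encoded on chromosome 7 from 95583499 to 95596491 on the minus strand (ENSG00000004799.7). It was at 6.37, 4.38 and 2.57 CPM in RPMI plus B27 and at 3.75, 15.6 and 13.1 CPM in DMEM plus fatty acids, which rested on 169, 103, 69, 87, 467 and 441 counts in the same order. DMEM plus fatty acids replicates 2 and 3 stood above all RPMI plus B27 libraries, and replicate 1 lay within their range. The means were 4.44 ± 1.90 and 10.8 ± 6.25 CPM (SD, n = 3 each). Its log2 fold change of 1.29 ± 0.55 (edgeR adjusted p 0.279) was the largest of the 10 and also the least certain. It was 1.69 without DMEM plus fatty acids replicate 1 and 0.93 without replicate 2 (adjusted p 0.130 and 0.572).

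**Figure D2:**
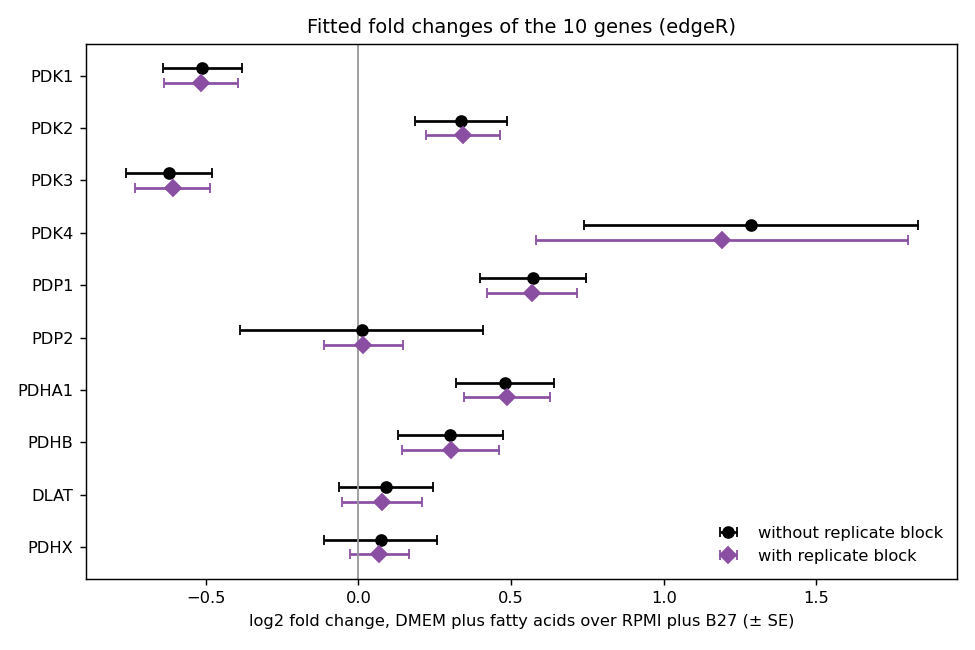
Log2 fold change of DMEM plus fatty acids relative to RPMI plus B27 (horizontal axis) for the 10 genes, with bars of 1 SE, from the edgeR fit without (black circles) and with (purple diamonds) the replicate number as a block. Both fits place PDK1 and PDK3 below 0 at -0.62 to -0.51, and the bars of PDK4, at 1.29 ± 0.55 without and 1.19 ± 0.61 with the block, are the widest of each fit.

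Because each kinase's share of the kinase counts is taken within a library, it does not depend on scaling between libraries. PDK1 supplied 81.1%, 80.4% and 80.6% of the kinase counts in RPMI plus B27 replicates 1, 2 and 3 and 75.4%, 73.9% and 72.3% in DMEM plus fatty acids. PDK2 supplied 8.29%, 11.4% and 11.4% in RPMI plus B27 and 16.7%, 17.2% and 17.2% in DMEM plus fatty acids. In both cases the groups did not overlap. In DMEM plus fatty acids the mean share of PDK1 was 6.82 percentage points lower and that of PDK2 6.66 points higher. Shares within a library have a fixed total, so a lower PDK1 count by itself raises the other shares. Per kilobase of all exons, given below, the sizes of the PDK1 and PDK2 differences did not match. The exact two-sided permutation test gave p = 0.1 for each, the smallest that 3 against 3 libraries allow, and 0.167 after Benjamini-Hochberg adjustment over the 10 shares and ratios tested here.

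PDK3 held 9.70%, 7.61% and 7.68% of the kinase counts in RPMI plus B27 and 7.22%, 6.26% and 7.92% in DMEM plus fatty acids, with overlap (exact permutation p = 0.3, adjusted 0.333). Per kilobase, as given below, this overlap depended on the transcript length used. PDK4 held 0.871%, 0.602% and 0.373% in RPMI plus B27 and 0.689%, 2.59% and 2.62% in DMEM plus fatty acids (exact permutation p = 0.2, adjusted 0.286). The 95% Wilson interval of the PDK4 share was 0.559% to 0.849% in DMEM plus fatty acids replicate 1 and 2.37% to 2.83% in replicate 2, and covers counting error only. PDK4 was the smallest of the kinases by counts in all 6 libraries.

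**Figure D3:**
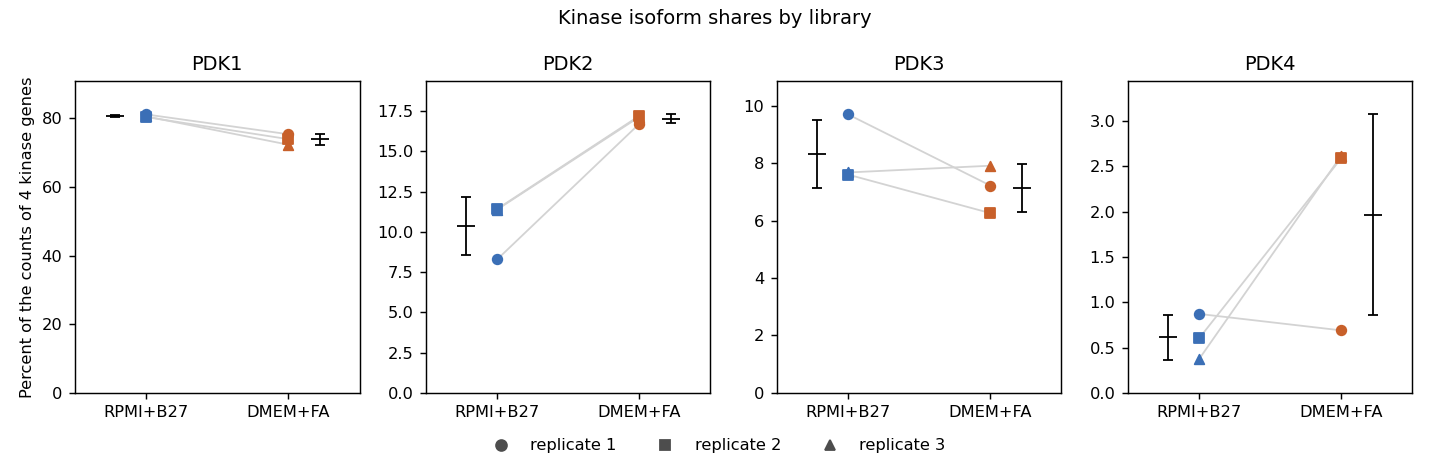
Percent of the summed counts of the 4 kinase genes held by each kinase gene in each library (vertical axes, from 0 and scaled per panel), with replicates joined by grey lines and black bars for the mean ± SD of 3 libraries. The PDK1 share falls from about 80.7% to 73.9% on average while that of PDK2 goes from 10.4% to 17.0%, and DMEM plus fatty acids replicate 1 stays at 0.689% for PDK4.

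Read shares favour long transcripts, and levels of different genes were therefore also compared per kilobase. Per kilobase of all annotated coding-transcript exons, PDHB had the highest level in both media (102 and 126 CPM per kilobase) and PDHA1 the next (79.0 and 110.2), followed in RPMI plus B27 by PDK1 (40.5 ± 1.41), PDHX (38.3 ± 6.15), DLAT (31.4 ± 2.26), PDK3 (23.8 ± 3.89) and PDK2 (19.1 ± 3.07), and then by PDP1 (3.34 ± 0.436), PDP2 (2.57 ± 1.16) and PDK4 (1.24 ± 0.531; SD, n = 3 each). Neighbours in that order had overlapping ranges over the libraries except for PDHA1 and PDK1, DLAT and PDK3, and PDK2 and PDP1, which were apart. In DMEM plus fatty acids PDK1 was at 28.4 ± 2.98, behind PDHX and DLAT, with a range that overlapped those of DLAT and PDK2. PDK2 (24.1 ± 2.41) came before PDK3 (15.5 ± 0.379) there, the reverse of their order in RPMI plus B27, and their ranges overlapped in RPMI plus B27 alone.

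The place of PDK1 in this order rests on its annotated length. Its coding transcripts run from 1515 to 14193 bases, and which of them these cells make was not analysed here. Per kilobase of all exons PDK1 held 47.9% ± 0.202 of the kinase signal in RPMI plus B27, against 40.0% ± 1.94 in DMEM plus fatty acids, while with the shortest coding transcripts it held 85.4% ± 0.115 and 80.7% ± 1.09 (SD, n = 3 each). The PDK2 share per kilobase of all exons was 22.7% ± 4.09 and 33.9% ± 0.766, and that with the shortest transcripts was 6.97% ± 1.23 and 11.8% ± 0.277. The direction for both isoforms was the same under each length, and the size of the PDK2 difference ran from 4.85 to 11.5 percentage points. Per kilobase of all exons PDK3 held 32.3%, 25.7% and 26.0% in RPMI plus B27. In DMEM plus fatty acids it held 22.7%, 19.4% and 23.5%, without overlap. With the shortest transcripts the PDK3 share was 7.38% ± 1.03 and 6.53% ± 0.769 (SD, n = 3 each), with overlap. The per-kilobase shares were not tested.

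Kinase promoters were read for the core motif of hypoxia-inducible factors, because PDK1 and PDK3 were lower in DMEM plus fatty acids and PDK2 was higher. The search covered 250 bases before each RefSeq start (GRCh38.p14) for ACGTG and GCGTG on both strands. The 30 bases that hold the core nearest the start are shown for the 3 kinase genes that have one, with the core in capitals (on the opposite strand it reads CACGT or CACGC, and CACGTG holds it on both strands in overlap).
PDK1, chr2:172556060-172556089, plus strand: ccctgctgcccgcCACGTccctCACGTacc
PDK3, chrX:24465208-24465237, plus strand: cccctcgcgcgccgcgtACGTGcagcaacc
PDK2, chr17:50095206-50095235, plus strand: cgggcccgggggaagcCACGTGccggggcg
The PDK1 stretch holds 2 cores within 17 bases of the second of 2 listed starts. In GENCODE 29 the printed cores of PDK1 and PDK3, and that of PDHA1 below, lie within an annotated exon of their own gene, upstream of the RefSeq start. For PDK1, the 250 bases before the other start hold 0 cores. PDK2 has 3 listed starts, and the core lies before the second.

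The single PDK4 window holds neither form of the core, nor the PPAR motif (a direct repeat of AGGTCA with 1 base between), the ERR motif TCAAGGTCA or the FOXO motif GTAAACA. The windows of the other kinase genes hold none of the PPAR, ERR and FOXO motifs either. The PDK4 window is shown whole, with nothing in capitals, because PDK4 is the only kinase gene without the core in any window.
PDK4, chr7:95596517-95596766, minus strand: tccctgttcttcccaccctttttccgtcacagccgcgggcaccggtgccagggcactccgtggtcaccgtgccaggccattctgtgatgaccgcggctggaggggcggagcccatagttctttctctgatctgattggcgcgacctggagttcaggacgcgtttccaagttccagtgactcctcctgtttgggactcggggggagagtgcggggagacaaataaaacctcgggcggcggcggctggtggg
PDP1 was left out of the search. Among the 9 genes searched, the core was found before genes of either direction, in at least 1 window of 8, all but PDK4. PDK1 and PDK3, at negative log2 fold changes, had it, and so did PDK2, PDHA1 and PDHB, at positive ones, as in these lines for the last 2.
PDHA1, chrX:19343897-19343926, plus strand: catgacgttattacgactctgtCACGCcgc
PDHB, chr3:58433852-58433881, minus strand: tggaggcggggcctgctCACGTctgccggc
Of 35116 such windows in the RefSeq table, 43.2% held either form, 18.5% ACGTG and 32.2% GCGTG. The PPAR, ERR and FOXO motifs were in 0.0171%, 0.319% and 2.98% of them. These are shares of single windows. The count by gene above is not on that unit, because PDK1, PDK2 and PDHX had multiple windows. A match describes letters in a window and not a bound site, and sites outside the window were not searched.

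The phosphatase genes differed from each other. PDP1 encodes the phosphatase catalytic subunit that is stimulated by calcium and is the main form in muscle. PDP1 was at 14.4, 17.7 and 14.2 CPM in RPMI plus B27 and at 25.7, 23.8 and 19.3 CPM in DMEM plus fatty acids, without overlap (log2 fold change 0.57 ± 0.17, edgeR adjusted p 0.160). PDP2, the second catalytic subunit, was at 27.8, 15.2 and 12.1 CPM in RPMI plus B27 and at 27.6, 16.1 and 11.9 CPM in DMEM plus fatty acids. Its levels followed the replicate number in both media, and libraries with the same number differed by at most 0.08 on the log2 scale. The log2 fold change of PDP2 was 0.01 ± 0.40 without the replicate block and 0.02 ± 0.13 with it (adjusted p 0.993 and 0.948).

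PDP1 made up 34.0%, 53.8% and 53.9% of the phosphatase counts in RPMI plus B27 and 48.1%, 59.6% and 61.8% in DMEM plus fatty acids. It was higher in each of the 3 numbered pairs, with overlap between groups (exact permutation p = 0.3, exact sign-flip p = 0.25, the smallest that 3 pairs allow). RPMI plus B27 replicate 1 had the lowest share, and without it the difference was 2.67 instead of 9.27 percentage points.

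PDHA1 encodes the alpha subunit of the decarboxylase, the part that the kinases phosphorylate. It lies on chromosome X from 19343893 to 19361705 on the plus strand (ENSG00000131828.13) and shares 956 exon bases with MAP3K15 on the opposite strand. PDHA1 was at 248, 342 and 301 CPM in RPMI plus B27 and at 430.0, 449.6 and 364 CPM in DMEM plus fatty acids. All 3 DMEM plus fatty acids libraries were above all RPMI plus B27 libraries, with means of 415 ± 44.7 and 297 ± 47.2 CPM (SD, n = 3 each). The log2 fold change was 0.48 ± 0.16 and the edgeR adjusted p 0.185.

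PDHB, the beta subunit of the decarboxylase, was at 138, 192 and 178 CPM in RPMI plus B27 and at 224, 229 and 173 CPM in DMEM plus fatty acids. Replicate 3 was level between media and the other numbers were higher in DMEM plus fatty acids, which gave a log2 fold change of 0.30 ± 0.17 (edgeR adjusted p 0.409), or 0.17 without RPMI plus B27 replicate 1. DLAT, the acetyltransferase that forms the core of the complex, ranged from 131 to 151 CPM and from 119 to 164 CPM (0.09 ± 0.15, adjusted p 0.800, with 0.012 to 0.23 when 1 library was left out). PDHX, which anchors the dihydrolipoamide dehydrogenase to that core, ranged from 90.6 to 124 CPM and from 90.9 to 131 CPM (0.07 ± 0.19, adjusted p 0.869). For DLAT and PDHX the libraries of the 2 media covered nearly the same range.

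Ratios within a library showed the 2 decarboxylase subunits and the core apart from each other by small amounts. The count ratio of PDHA1 to PDHB was 1.79, 1.78 and 1.69 in RPMI plus B27 and 1.92, 1.96 and 2.11 in DMEM plus fatty acids, without overlap (exact permutation p = 0.1, adjusted 0.167). That of DLAT to PDHB was 0.950, 0.786 and 0.773 in RPMI plus B27 and 0.734, 0.715 and 0.688 in DMEM plus fatty acids, also without overlap (p = 0.1, adjusted 0.167, exact permutation test). The ratio of PDHX to DLAT was 0.792 ± 0.121 and 0.782 ± 0.0146 (SD, n = 3 each; exact permutation p = 1.0).

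Kinase counts were lower relative to those of their substrate complex. Summed over genes, there were 1.15, 0.899 and 0.975 kinase counts per subunit count in RPMI plus B27 and 0.573, 0.620 and 0.669 in DMEM plus fatty acids. The groups did not overlap, each numbered pair was lower, and the ratio in DMEM plus fatty acids was 0.618 times that in RPMI plus B27 (exact permutation p = 0.1, adjusted 0.167). Kinase counts per phosphatase count were 17.3, 22.1 and 26.2 in RPMI plus B27 and 10.2, 15.1 and 16.0 in DMEM plus fatty acids, a ratio 0.626 times as high, again without overlap (p = 0.1, adjusted 0.167, exact permutation test). By counts the kinase sum was mostly PDK1, and the size of both ratios depended on transcript length. Per kilobase of all exons, kinases over subunits averaged 0.341 in RPMI plus B27 against 0.231 for DMEM plus fatty acids. With the shortest transcripts it averaged 0.649 and 0.370 in that order. Kinases over phosphatases averaged 14.6 and 9.73 per kilobase of all exons, and 46.1 and 25.4 with the shortest transcripts. The direction was the same under both lengths, and the per-kilobase ratios were not tested. All are ratios of transcripts, with no measure of protein or of phosphorylation.

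**Figure D4:**
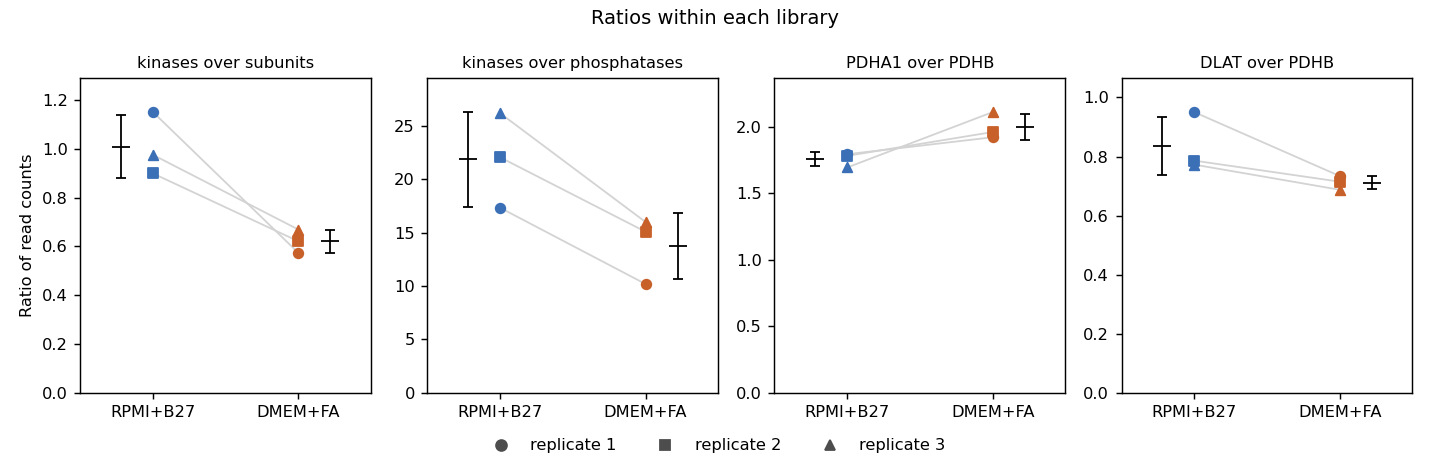
Ratios of read counts within each library (vertical axes, from 0 and scaled per panel) for kinases over subunits, kinases over phosphatases, PDHA1 over PDHB and DLAT over PDHB, with replicates joined by grey lines and black bars for the mean ± SD of 3 libraries. Kinases over subunits go from 0.899 to 1.15 in RPMI plus B27 down to 0.573 to 0.669 in DMEM plus fatty acids.

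Genes around the complex were taken from 7 lists. They were chosen with earlier results of these data known, so their counts and medians are descriptions. Of the companions of the complex, DLD, the dihydrolipoamide dehydrogenase, was at 161, 222 and 201 CPM in RPMI plus B27 and at 286, 279 and 259 CPM in DMEM plus fatty acids, without overlap (0.50 ± 0.15, edgeR adjusted p 0.148). PDPR, the regulatory subunit of the phosphatase, had 0.04 ± 0.14 (adjusted p 0.915), and the testis form PDHA2 was too low to be tested. Of 9 genes that supply lipoate and thiamine cofactors 0 passed in edgeR with or without the block or in DESeq2, with 1 at an unadjusted p under 0.05 and a median log2 fold change of 0.15.

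Of 9 genes of the sister complexes that use the same dehydrogenase, 1 passed, against a background of 0.292% called higher. OGDHL, an oxoglutarate dehydrogenase of restricted tissue range, rose from 53.6 ± 4.38 to 96.0 ± 9.79 CPM (SD, n = 3 each; 0.84 ± 0.12, edgeR adjusted p 0.0386), and passed 0 times of 6 when each library in turn was left out (0.0701 to 0.128). OGDH itself had 0.57 ± 0.16 and its partner DLST 0.35 ± 0.12, with adjusted p values of 0.142 and 0.193. The median of the list was 0.15.

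Among 15 tested genes of pyruvate supply and its other fates, 1 passed, as lower, where 1.07% of all tested genes did. LDHA, the lactate dehydrogenase subunit that favours lactate formation, fell from 1385 ± 506 to 288 ± 91.9 CPM (SD, n = 3 each; -2.26 ± 0.32, edgeR adjusted p 0.0347), a call that remained with 1 of the 6 libraries left out and not with the other 5 (adjusted p up to 0.115). With the block 5 passed, where 4.78% of all genes did. They were LDHA (-2.25 ± 0.14), the lactate carriers SLC16A1 (-0.68 ± 0.12) and SLC16A3 (-2.18 ± 0.14) downward, and the mitochondrial phosphoenolpyruvate carboxykinase PCK2 (2.20 ± 0.23) and the pyruvate carrier subunit MPC1 (0.61 ± 0.12) upward. The adjusted p with the block was 0.00582 for LDHA, 0.0384 for SLC16A1, 0.00613 for SLC16A3, 0.0131 for PCK2 and 0.0455 for MPC1. Without the block those of the last 4 were 0.0583, 0.0995, 0.0583 and 0.301.

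Genes known to respond to hypoxia were set beside PDK1. Their list, like that of the fatty acid genes below, was chosen with earlier results of these data known. Of 19 tested, 18 had negative log2 fold changes with a median of -1.24, against 0.01 for all tested genes. In edgeR 3 passed, all lower (BNIP3 -2.04 ± 0.32, PFKFB3 -1.43 ± 0.25 and P4HA2 -1.08 ± 0.19, adjusted p 0.0402, 0.0471 and 0.0480), where 1.07% of all genes passed as lower, and 11 passed as lower with the block, against 3.42%. With 1 library left out in turn, BNIP3 passed 1 time of 6 and PFKFB3 and P4HA2 0 times.

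Of the 19 genes, 18 were highest in replicate 1 among the RPMI plus B27 libraries, as PDK1 was. The highest of these libraries was 1.07 times the lowest for PDK1, and for the 19 genes 2.00 times at the median, from 1.14 times for BNIP3L to 13.1 times for NDRG1. BNIP3, at the median, was at 276, 176 and 137 CPM there. These spreads were compared after the values were seen, and the difference was not tested. The share of all tested genes that were highest in RPMI plus B27 replicate 1 was not computed. HIF1A, the oxygen-regulated factor itself, was at 239, 445 and 488 CPM in RPMI plus B27 and at 403, 475 and 405 CPM in DMEM plus fatty acids (0.13 ± 0.26, edgeR adjusted p 0.830).

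Of 18 tested genes that respond to fatty acids and PPARs, as PDK4 is known to, 14 had positive log2 fold changes and the median was 0.32. In edgeR 2 passed as higher and 1 as lower, beside 0.292% and 1.07% of all tested genes. CPT1A, which loads fatty acids onto carnitine for mitochondrial import, rose from 29.3 ± 4.82 to 98.7 ± 33.1 CPM and ETFDH, which passes electrons from fatty acid oxidation to ubiquinone, from 48.9 ± 0.999 to 99.1 ± 10.7 CPM (SD, n = 3 each; 1.75 ± 0.27 and 1.02 ± 0.12, adjusted p 0.0402 and 0.0252). TXNIP, which restrains glucose uptake, fell from 225 ± 47.9 to 10.3 ± 3.26 CPM (-4.45 ± 0.30, edgeR adjusted p 0.00478). With 1 library left out in turn, TXNIP passed 6 times of 6, and CPT1A and ETFDH 1 time each.

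Like PDK4, 13 of these 18 genes were lowest in replicate 1 among the DMEM plus fatty acids libraries. CPT1A was at 62.3, 127 and 107 CPM there, and ANGPTL4, a secreted lipase inhibitor, at 1.21, 28.9 and 16.5 CPM. In the lowest of the 3, ANGPTL4 was below the RPMI plus B27 libraries at 3.43 to 11.9 CPM, while CPT1A remained above its RPMI plus B27 range of 26.0 to 34.9 CPM. Both the pattern and ANGPTL4 were chosen after the values were seen, and the median of this list was 0.43 without DMEM plus fatty acids replicate 1. The share of all tested genes that were lowest in that library was not computed.

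Of 14 factors known to control kinase genes 0 passed in edgeR, and 3 had an unadjusted p under 0.05, a share near the 17.7% of all tested genes. By DESeq2 2 passed as higher, where 2.12% of all genes did. ESRRG, an oestrogen-related receptor of oxidative muscle, was at 75.9, 93.3 and 73.7 CPM in RPMI plus B27 and at 138, 154 and 108 CPM in DMEM plus fatty acids (0.72 ± 0.16, adjusted p 0.0875 and 0.0255 with the block). NR3C1, the glucocorticoid receptor, was at 32.9, 34.3 and 34.2 CPM and at 51.1, 48.1 and 46.4 CPM in the same order (0.52 ± 0.11, edgeR adjusted p 0.0738). EPAS1, the second oxygen-regulated factor, was lower in DMEM plus fatty acids (-0.60 ± 0.21, adjusted p 0.201). For all 3 the libraries of the media did not overlap.

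**Figure D5:**
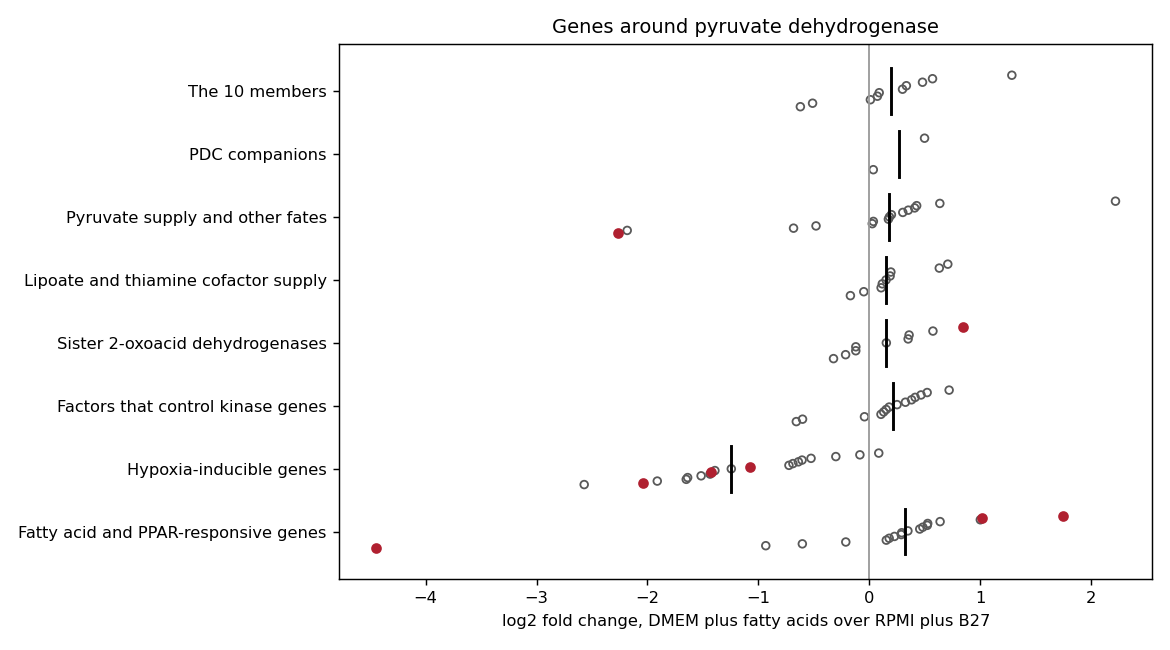
Log2 fold change of DMEM plus fatty acids relative to RPMI plus B27 (horizontal axis) of every tested gene in the set of 10 and in 7 lists around it (rows), with black bars at the medians and filled red points for an edgeR adjusted p under 0.05. The set of 10 holds no filled point and has a median of 0.20, and the median of the hypoxia-inducible genes lies at -1.24.

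Across the 6 libraries, the genes whose log2 CPM was most like that of PDK1 among 10027 with a mean of at least 10 CPM were STAT5B (Pearson's r 0.998), RAI14 (0.995), CDS2 (0.993) and ADAM19 (0.992). STAT5B was at 80.4, 80.6 and 77.1 CPM in RPMI plus B27 and at 57.3, 61.1 and 51.7 CPM in DMEM plus fatty acids. It was picked for the highest r among the 10027 genes, so its likeness to PDK1 follows from the choice. For PDK4 the most similar were AK3 (0.984), H1-2 (0.972), FAM117B (0.968) and GRK3 (0.963). These correlations describe 6 libraries that also share the difference in medium.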

How the data were processed

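The authors deposited raw read counts by gene symbol for 6 libraries, 1 file each, made with STAR and HTSeq on hg38 per the submitters' processing notes. Versions, annotation and strand setting are not given in the sources used here. Per the labels, the library kit was a stranded one for mRNA. Summary rows that name no gene (12.8% to 15.6% of each library) were left out. Reads aligned to several places were among them, so genes with close copies can be undercounted.

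Counts were tested with edgeR 4.0.16 (R 4.3.3): filterByExpr (minimum count 10, total 15), TMM scaling, quasi-likelihood test over 6 libraries without covariates, and Benjamini-Hochberg adjustment over all 16107 genes with a threshold of 0.05. SE values are those implied by the F statistic. The fit was tested on simulated data. It recovered 45 of 100 genes changed by 1 on the log2 scale and 99 of 100 changed by 3, with 9 false calls. Smaller changes were not simulated. The simulation drew independent libraries with the dispersions of the fit, without an effect of replicate number, and changed no gene of low level. Its figures may therefore not hold for the real libraries. Shares and ratios were computed on counts and tested by exact permutation. Intervals cover counting error only.

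Alternatives were other scalings and filters, DESeq2 1.42.0, the replicate number as a block, and leaving out each library. Deviations of same-numbered libraries from their medium's mean correlated at 0.31, 0.43 and 0.37 (-0.24 to -0.14 for other numbers). The numbers were therefore used as pairs in the block fit and the sign-flip test, although what they share is not in the labels. The main edgeR test, the DESeq2 test and the permutation tests did not use the numbers. Transcript lengths and positions came from GENCODE 29 and promoter windows from RefSeq, both on GRCh38. Named genes were the 10, called list genes, up to 4 genes per list with the smallest p, and the 4 most similar to PDK1 and to PDK4. Added after their values were seen were HIF1A, ANGPTL4, MPC1, MYH6, MYH7, ACTN2, TNNI1, KDR, TEK, TIE1, BNIP3L, NDRG1 and the epicardial markers. Members and lists were chosen with earlier results of these data known.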

Additional observations from a re-analysis of the deposited data

How the results depend on the processing

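Of the 10 genes, 2 passed by DESeq2 and 1 with the replicate block, and 0 under each other alternative. Over all genes 1237 passed by DESeq2, 770 with the replicate block (among them all 219), 539 without a filter and 119 when every library had to hold 10 or more counts of a gene. Without RPMI plus B27 replicate 1, 2 and 3 the count was 30, 4 and 131, and without DMEM plus fatty acids replicate 1, 2 and 3 it was 11, 12 and 3. Leaving out 1 library changed the sign of 4 genes named here, with log2 fold changes of -0.39 to 0.44 for PDP2, -0.051 to 0.23 for PDHX, -0.039 to 0.16 for PDPR and -0.13 to 0.32 for HIF1A. Scaling by total counts moved the median of all genes from 0.01 to 0.12 and list medians to 0.38 (companions), 0.29 (pyruvate supply), 0.26 (cofactor supply and, likewise, sister complexes) and 0.43 (fatty acid response). PDK1 was at -0.41 under that scaling. Leaving out 1 library gave medians of 0.073 to 0.23 for pyruvate supply, 0.11 to 0.23 for sister complexes and 0.28 to 0.43 for fatty acid response. Per exon length, the differences in share were 11.3 percentage points for PDK2, -6.14 for PDK3 and 2.76 for PDK4. With the longest transcripts they were 11.5, -7.07 and 2.49, and with the shortest -4.64 for PDK1 and 4.85 for PDK2, both lengths chosen after seeing the data. The replicate block changed no call of the 10 genes other than that of PDK3. For the shares and ratios, the mean difference within pairs equals that between groups by arithmetic, so it was no check. The cause of these shifts was not tested.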
